A study of Mus musculus with 18 samples.

Results

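The sites described here are those of Insl3 and Amhr2 in mRNA and of Jak3 in small RNA, 3 rows of the 443 listed in the mRNA (251 sites) and small RNA (192 sites) tables. Insl3 and Amhr2 were taken by gene name, as genes of the hormone-producing Leydig cells and of the Sertoli cells, and Jak3 was selected on its position, which is the very position listed for Insl3. All 3 were picked from rows whose m5C levels in both genotypes were already known, and the Jak3 row was known as one whose genotypes did not overlap. The levels of Jak3 by genotype and by kind of library are therefore given as a description, with no test. Testis RNA of adult mice was compared between the wild type (WT) and an Nsun7 knockout. The labels used here give neither the strain nor the knockout allele. Each genotype had 3 libraries of oligo-dT-captured mRNA and 3 of small RNA. RNA was treated with an ultrafast bisulfite reagent, which turns unmethylated cytosine into uracil, and the percentage of reads with C left at a position was taken as its 5-methylcytosine (m5C) level. NSUN7 belongs to the NOL1/NOP2/Sun family, most members of which methylate cytosine in RNA, and no site was listed in Nsun7 itself, so the tables held no check of the knockout.

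INSL3 is a peptide hormone of the relaxin family. Leydig cells, which lie between the seminiferous tubules, secrete it, and through its receptor RXFP2 it drives the descent of the fetal testis. AMHR2 is the type II receptor for anti-Müllerian hormone, a serine/threonine kinase present in the testis on Sertoli and Leydig cells, which signals through SMAD proteins. JAK3 is a cytoplasmic tyrosine kinase that carries signals from cytokine receptors with the common gamma chain and is known chiefly from lymphocytes.

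Insl3 (ENSMUSG00000079019) and Jak3 (ENSMUSG00000031805) were listed at chromosome 8, position 72142024, plus strand, and Amhr2 (ENSMUSG00000023047) at chromosome 15, position 102360901, plus strand. The submitters' processing notes name GRCm39 as the build. Of the 251 mRNA positions and 192 small RNA positions, 1 was in both tables, and it carried a different gene name in each. In the RefSeq gene table, which is of another build, the whole span of Insl3 lay inside that of Jak3 and ended at the same base. Of 210 mRNA-table genes with 1 entry among the RefSeq protein-coding genes, 2 lay inside another such gene, Insl3 in Jak3 and Ldhal6b in Tmem242. The RefSeq promoter windows put Insl3 and Jak3 on the plus strand, so strand does not separate reads of the 2 genes at this position. No Jak3 site was listed in mRNA and no Insl3 site in small RNA. Whether a site lay in an exon, an intron or a UTR was not analysed here, because no annotation of GRCm39 was used.

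Because the start of Insl3 lies within the Jak3 gene, its promoter is shown, next to that of the other somatic gene, Amhr2. The RefSeq windows (GRCm38.p6, 250 bases before to 50 after the start) were searched on both strands for CAAGGTC, the core bound by the nuclear receptor NR5A1 (steroidogenic factor 1), and for TATAA, the core of the TATA box. CAAGGTC stood in 1301 of 32851 windows (3.96%), and TATAA in 8171 (24.9%). The Insl3 window held CAAGGTC 1 time and the Amhr2 window 2 times, while neither motif was found in the Jak3 window. TATAA was found in the Insl3 window only among these 3, starting 30 bases before the start, where TTATAA reads as TATAA on both strands. The 2 motifs were chosen with the sequences in view, and a match describes the letters in the window, not a bound site. Each stretch below is 30 bases on the plus strand, 5′ to 3′, with the motif in capitals.
Insl3, chr8:71689104-71689133: ggagaggacttCAAGGTCccaagctggaca
Insl3, chr8:71689210-71689239: gcgcgaggcagtTATAAggagcatccctgc
Amhr2, chr15:102445124-102445153: gcaccttcttcCAAGGTCagtaggggtaga
Amhr2, chr15:102445184-102445213: agctggacagcCAAGGTCccttcctcccct

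The Insl3 site was deep and lowly methylated. In WT, 107 of 1871 reads showed C in replicate 1, 98 of 1865 in replicate 2 and 67 of 1122 in replicate 3, levels of 5.72%, 5.25% and 5.97%. In the knockout, 161 of 2795, 154 of 2568 and 63 of 1322 reads showed C, levels of 5.76%, 6.00% and 4.77%. The knockout libraries held both the highest and the lowest of the 6 values, and the genotypes overlapped. The exact 95% binomial intervals (Clopper-Pearson) of single libraries were 1.76 to 2.86 percentage points wide, from 4.93% to 6.69% in knockout replicate 1 and from 4.66% to 7.52% in WT replicate 3. All such intervals hold counting error alone, because no molecular identifiers were counted and several reads may stem from 1 molecule.

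Mean Insl3 levels were 5.65% ± 0.364 for WT and 5.51% ± 0.653 for the knockout (SD, n = 3), which differ by -0.141 points. Over the 9 pairs of a WT and a knockout library, the difference ran from -1.21 to 0.742 points, with 4 pairs lower in the knockout. Between libraries of the same number it was 0.0414, 0.742 and -1.21 points. The quasi-binomial model gave an odds ratio of 1.01 with a 95% interval from 0.821 to 1.24, and an adjusted p of 0.972 (Benjamini-Hochberg over 251 sites). The interval of the difference in limma was -2.70 to 2.42 points. The mean difference and the odds ratio point in opposite directions because the odds ratio weights libraries by their reads. The difference turned positive when reads were pooled by genotype (0.0554 points), without WT replicate 3 (0.0208) and without knockout replicate 3 (0.230), so it has no settled direction. Counting reads alone would give an SD of 0.588 points among the WT libraries and 0.517 among the knockout libraries, above the observed SD in WT and below it in the knockout. The dispersion of the site was 0.836, where 1 is counting error alone, and the median over the 251 mRNA sites was 0.891.

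At Amhr2 the levels were as low, at a much smaller depth. In WT, 6 of 125 reads showed C in replicate 1, 5 of 155 in replicate 2 and 6 of 114 in replicate 3, levels of 4.80%, 3.23% and 5.26%. In the knockout, 10 of 193, 7 of 195 and 11 of 137 reads showed C, levels of 5.18%, 3.59% and 8.03%. Knockout replicate 3 was the highest library and WT replicate 2 the lowest, and the other 4 lay between them with the genotypes mixed. The exact 95% intervals were 5.80 to 9.84 points wide, and that of knockout replicate 3, from 4.08% to 13.9%, overlapped those of the other 5 libraries.

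Mean Amhr2 levels were 4.43% ± 1.07 for WT and 5.6% ± 2.25 for the knockout (SD, n = 3). They differed by 1.17 points, and single WT and knockout libraries by -1.67 to 4.80, with 3 of 9 pairs lower in the knockout. The odds ratio was 1.25 with a 95% interval from 0.526 to 2.97, and the quasi-binomial model gave an adjusted p of 0.972. The limma interval on the level ran from -2.64 to 4.98 points. Without knockout replicate 3 the difference was -0.0441 points, so the sign of the mean difference rested on 1 library. Between libraries of the same number the differences were 0.381, 0.364 and 2.77 points. The dispersion was 0.980, and counting alone would give SDs of 1.79 (WT) and 1.72 (knockout) points, above the observed SD in WT and below it in the knockout.

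For the mRNA table as a whole, the quasi-binomial model called 0 of 251 sites (0%) at an adjusted p under 0.05, with 20 at an unadjusted p under 0.05, and limma called 0 with 14. Without knockout replicate 3 the quasi-binomial model called 1 site, which was neither Insl3 nor Amhr2. The genotypes did not overlap at 29 sites (11.6%), and neither Insl3 nor Amhr2 was among them.

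**Figure D1:**
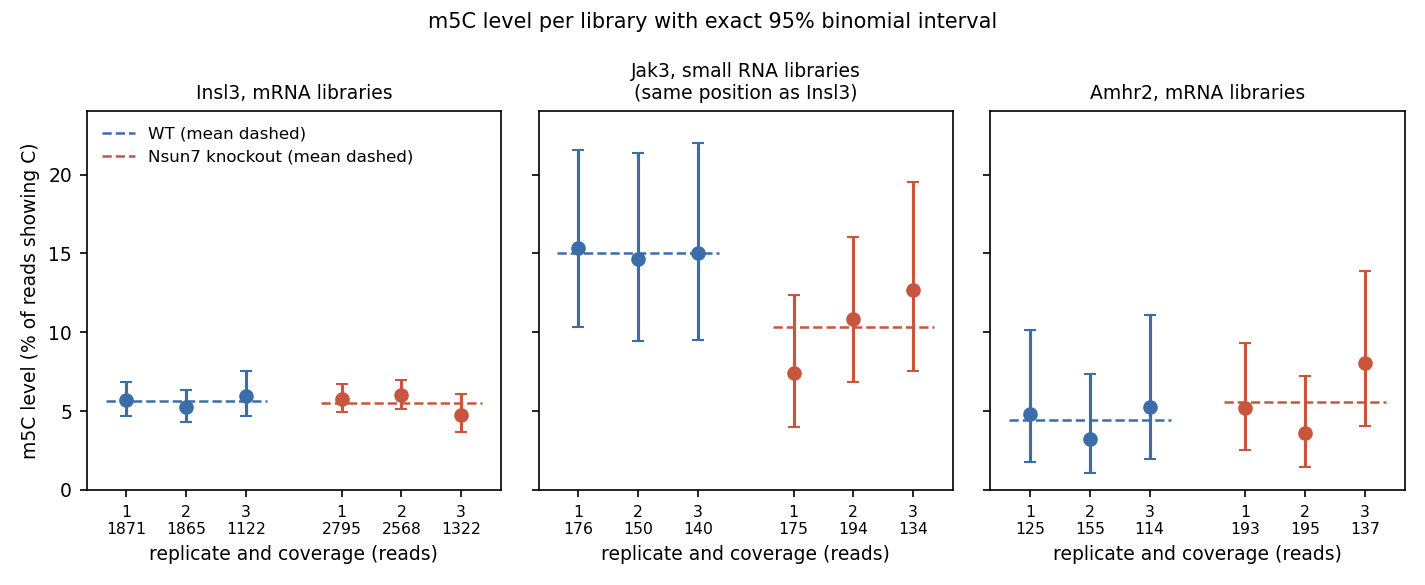
The m5C level (percent of reads showing C) of each library at Insl3 (mRNA), at the same position listed as Jak3 (small RNA) and at Amhr2 (mRNA), with the exact 95% binomial interval as the bar, the mean of each genotype as a dashed line, and the replicate number and coverage in reads under each point. The 6 Insl3 libraries lie between 4.77% and 6.00%, all below the 6 small RNA libraries at the same position, which lie between 7.43% and 15.3%.

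Small RNA libraries gave the same position, listed as Jak3, a higher level from fewer reads. In WT, 27 of 176 reads showed C in replicate 1, 22 of 150 in replicate 2 and 21 of 140 in replicate 3, levels of 15.3%, 14.7% and 15.0%. In the knockout, 13 of 175, 21 of 194 and 17 of 134 reads showed C, levels of 7.43%, 10.8% and 12.7%. The WT libraries were tightly grouped and above all 3 knockout libraries, which were spread over a wider range.

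Mean levels of the Jak3 row were 15.0% ± 0.337 for WT and 10.3% ± 2.67 for the knockout (SD, n = 3), which differ by -4.69 points. Taking each knockout library against each WT library, the values ran from -7.91 to -1.98 points. Between libraries of the same number they were -7.91, -3.84 and -2.31 points. The row was chosen with this contrast known, and 11 of 192 small RNA sites (5.73%) had all knockout libraries below all WT libraries. The difference was -3.25 points without knockout replicate 1, the lowest library, and -5.88 without knockout replicate 3. The WT libraries lay closer together than counting reads would place them, with an SD of 0.337 points against 2.88 from counting alone, and the knockout SD of 2.67 was near its counting value of 2.36. Reads pooled by genotype gave 70 of 466 (15.0%, exact 95% interval 11.9% to 18.6%) in WT and 51 of 503 (10.1%, interval 7.64% to 13.1%) in the knockout, and the 2 intervals overlapped. At 0.624 the dispersion was below the median of 1.30 over 184 small RNA sites.

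Set side by side, the 2 kinds of library did not overlap at the shared position. The mean over 6 libraries was 5.58% ± 0.479 in mRNA and 12.7% ± 3.08 in small RNA (SD, n = 6), a difference of 7.08 points and a ratio of 2.27. All 36 pairs of libraries had the small RNA level higher, by 1.43 to 10.6 points. In WT the difference was 9.35 points, with the nearest libraries 8.70 points apart. In the knockout it was 4.81 points, with the nearest libraries 1.43 points apart. The highest upper bound of any mRNA library was 7.52%, and the lower bound of the small RNA library was above it in 3 of 3 WT and 1 of 3 knockout libraries.

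Coverage of the position was 11.9 times higher in mRNA (1122 to 2795 reads) than in small RNA (134 to 194 reads), summed over libraries. The genotype difference was near 0 at the deeper mRNA row and negative at the small RNA row, and whether these differ was not tested, since the second was known when the row was chosen. The kinds of library differed in the RNA fraction and in the kit (a stranded mRNA kit and a small RNA kit), and these cannot be told apart. Completeness of conversion was not measured here. At the other listed positions the 2 tables give no further comparison of this sort, because none is shared. Git1 and Piwil1 were named in both tables, at different positions.

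Among mRNA sites Insl3 stood out for depth rather than level. Its mean coverage of 1924 reads was the third highest of 251 (the median site had 127), and its 272 C reads in WT ranked 11 from the top. Its WT level was above that of 53 sites and below that of 197, with a median site at 10.1%. There were 5 mRNA sites with a mean coverage of at least 1000 reads. Levels in WT and knockout were 4.70% and 4.37% for Ubb-ps, 5.30% and 5.17% for Asrgl1, and 4.17% and 3.71% for Tcp10c. Pabpc1, which encodes a poly(A)-binding protein, was the one deep site with a higher level, 20.9% and 20.7%. At all 5 deep sites, Insl3 included, the genotypes overlapped, and the mean differences lay between -0.463 and -0.129 points.

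Amhr2 was of ordinary depth, with 104 as its rank from the top, and of low level, with 21 of 251 sites below it in WT and 229 above it. Every listed mRNA site had at least 4 C reads in each WT library. At the depth of Amhr2, 4 reads are a level of 2.58% to 3.51%, close to the WT levels of 3.23% to 5.26%. At the depth of Insl3 they are 0.214% to 0.357%, far under its levels. The sources used here do not give the condition for listing a site. Among 79 mRNA sites with a mean coverage of 100 to 200 reads, a window set after the values were seen, 42 had a larger absolute difference between genotypes than Amhr2.

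The Jak3 row was among the least methylated of the small RNA table, where the median site stood at 79.4% in WT. In WT 8 of 192 sites were lower, and in the knockout 3 were. Of the 39 small RNA sites outside tRNA and tRNA-like genes, 5 were lower in WT and the Jak3 row was the fourth in coverage (161.5 reads on average, where the median was 33.2). Among 25 small RNA sites with a mean coverage of 100 to 300 reads, again a window set with the values in view, its genotype difference was the lowest. The median absolute difference was 1.45 points. This rank is no evidence for the difference, because the row was chosen with that contrast known. Outside the window larger falls were listed. An example was -5.60 points at tRNA-Gly-GCC-4-1 (position 111789229), with a mean coverage of 656 reads in WT and 735 in the knockout. Another was -9.49 at tRNA-Ile-AAT-1-1, a site shallower than Jak3, with 52.3 and 49 reads. Larger rises were listed too, such as 12.2 points at tRNA-Pro-TGG-1-1 (position 98464669), also shallower, with 38.3 and 27.3 reads.

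**Figure D2:**
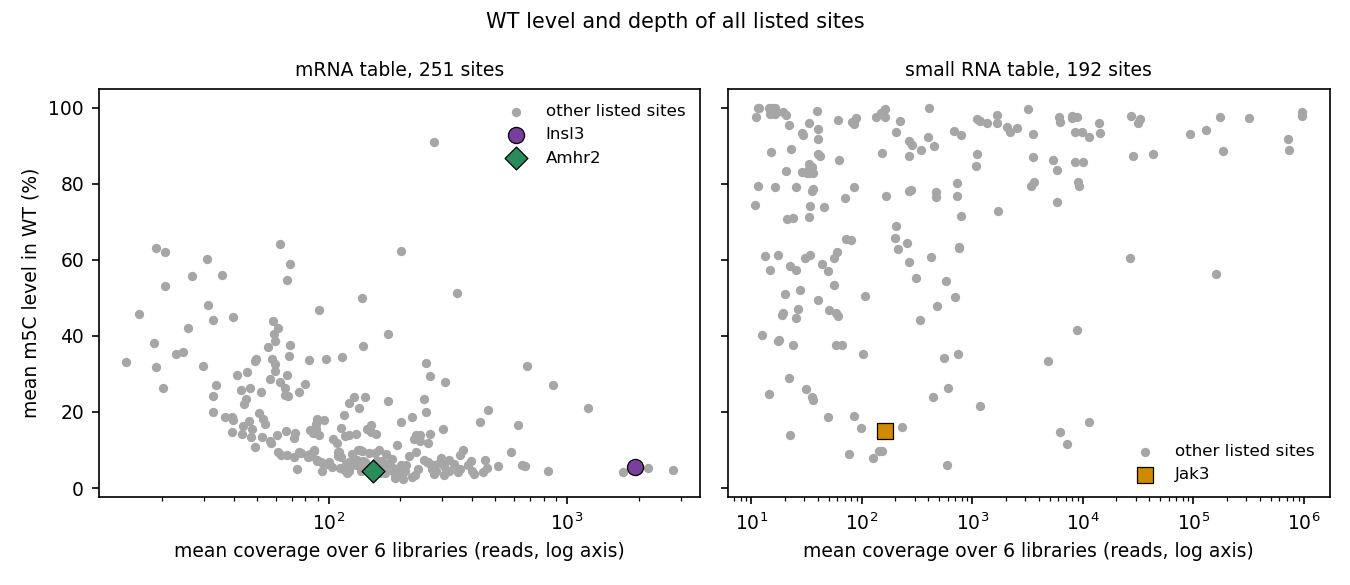
Mean m5C level in WT (percent) against mean coverage over 6 libraries (reads, log axis) for the 251 mRNA sites (left) and 192 small RNA sites (right), one point per site. Insl3 lies at the right edge of the mRNA panel at 5.65%, Amhr2 at 4.43% among sites of ordinary depth, and Jak3 near the bottom of the small RNA panel at 15.0%.

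**Figure D3:**
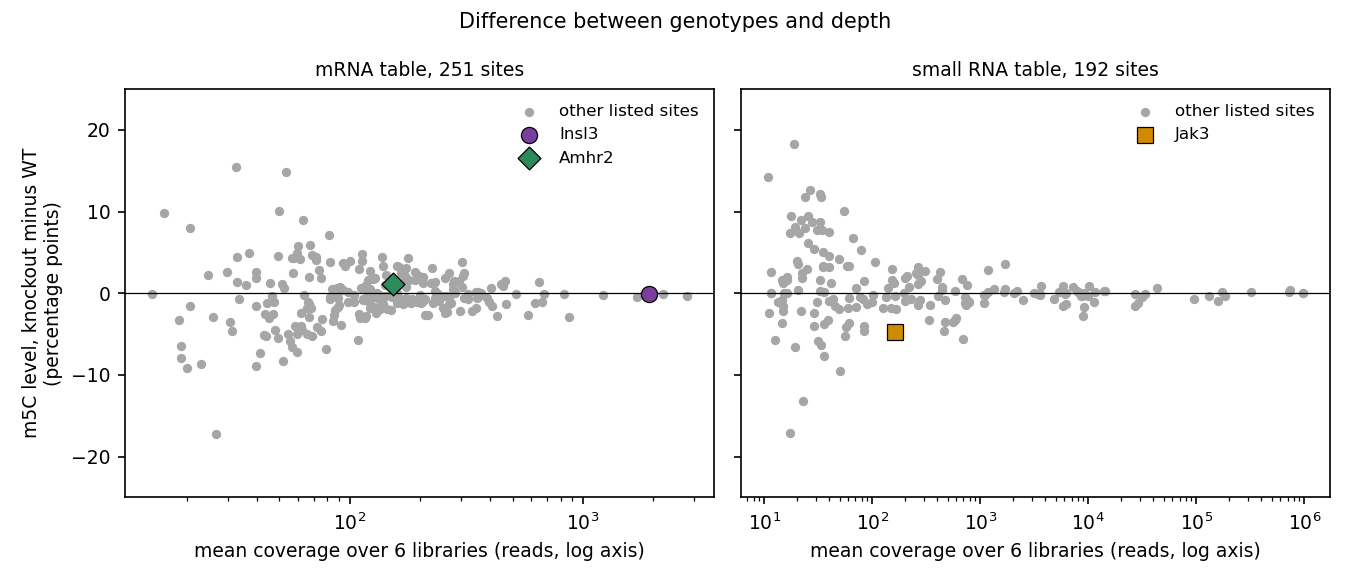
Difference in mean m5C level, knockout minus WT (percentage points), against mean coverage (reads, log axis) for the same sites. The points draw in towards 0 as coverage rises; Insl3 (-0.141) lies on the line, Amhr2 (1.17) within the cloud of its depth, and Jak3 (-4.69) at the lower edge of the sites of its depth.

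By the root mean square difference of level over the 6 libraries, the mRNA sites most like Insl3 among 176 with at least 50 reads throughout were Asrgl1 (0.446 points), Snrpc (0.654) and Zkscan17 (0.95). Asrgl1, which encodes an asparaginase-like hydrolase, was also of like depth, at 1801 to 2569 reads. The closest to Amhr2 were Sugt1 (0.883 points), 4930403D09Rik (1.21) and Mif4gd (1.45). Sugt1 had mean levels of 4.08% (WT) and 5.69% (knockout). In small RNA the closest to Jak3 among 172 sites with at least 10 reads throughout were tRNA-Leu-CAG-2-1 at position 170866240 (2.98 points), tRNA-Gly-CCC-2-2 at 96290274 (3.24) and Rprl2 at 22305671 (4.00). Their genotype differences were -1.26, 0.739 and 0.68 points, and the genotypes overlapped at each. The Jak3 row was chosen as one without overlap, so its difference from them in this respect was set in advance. The 2 tRNA sites rested on 5124 to 8422 reads per library, Rprl2 on 84 to 218.

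Coverage, which the choice of rows did not use, was compared next. It counts the reads over 1 position and was scaled by TMM to the other listed sites of the same table, so it is not a level of the whole transcript among all genes. In bulk testis a change in it could come from the number of cells of a type or from the RNA per cell, and these cannot be told apart. At Insl3 the scaled coverage per 1000000 reads was 36234, 39354 and 25638 in WT and 48361, 44290 and 32728 in the knockout. Replicate 3 was the lowest library of each genotype, and the genotypes overlapped. The log2 change was 0.31 with an SE of 0.24, at an adjusted p of 0.988 in edgeR's quasi-likelihood test. Each knockout library was above the WT library of the same number, by 1.33, 1.13 and 1.28 times. Leaving out WT replicate 3 lowered the log2 change to 0.15, knockout replicate 1 lowered it to 0.20, and leaving out knockout replicate 3 raised it to 0.46.

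At Amhr2 the scaled coverage was 2421, 3271 and 2605 per 1000000 in WT and 3339, 3363 and 3392 in the knockout. The 3 knockout libraries lay close together and above all WT libraries, WT replicate 2 being the nearest. The log2 change was 0.28 with an SE of 0.13, at an adjusted p of 0.988 in edgeR's quasi-likelihood test. That SE was worked back from the F statistic of the test, and DESeq2 gave 0.27 with an SE of 0.24. Without TMM, per 1000000 listed reads, WT replicate 2 (3420) lay above knockout replicate 3 (3255), and the genotypes overlapped. The log2 change was 0.19 without WT replicate 1. Of 251 mRNA sites, 11 (4.38%) had all knockout libraries above all WT libraries in scaled coverage. Scaled coverage was higher in the knockout in all 3 same-numbered pairs at 37 sites (14.7%), Insl3 and Amhr2 among them, and lower in all 3 at 39. Over the 6 libraries the log2 scaled coverage of Insl3 and Amhr2 had a Pearson r of 0.564, given as a description. Amhr2 ranked 72 of 250 sites in likeness to Insl3, a ranking led by Gm42918 (0.967), Fzr1 (0.967) and 1700025M24Rik (0.951). Insl3 ranked 26 of 250 sites in likeness to Amhr2, a ranking led by Ruvbl2 (0.974), Pcbp3 (0.925) and Cgrrf1 (0.904).

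For Jak3 in small RNA, scaled coverage was 30.5, 29.0 and 31.3 per 1000000 in WT and 34.1, 41.9 and 31.8 in the knockout. All knockout libraries were higher, the nearest by little, and 24 of 192 small RNA sites (12.5%) showed the same. A rise in all 3 same-numbered pairs, as at Jak3, was found at 45 sites (23.4%), and a fall in all 3 at 21. The log2 change was 0.25 with an SE of 0.16, at an adjusted p of 0.743 in edgeR's quasi-likelihood test. Without TMM, WT replicate 1 (34.9) lay above knockout replicate 3 (28.1), and the genotypes overlapped. The change depended on the scaling, with 0.13 for total listed coverage without TMM and 0.18 in DESeq2, while the median over all small RNA sites was 0.0418, -0.0829 and -0.0251 in the 3 scalings. It was 0.11 with the fit limited to sites of 20 or more reads in each library. Leaving out knockout replicate 2 gave 0.07, and leaving out knockout replicate 3 gave 0.33. The 2 deepest small RNA sites, both in tRNA-Glu-TTC-1-1, had 961677 to 978773 reads in every library. Whether coverage was limited near this depth is not known, and if so the listed totals behind the small RNA scaling would be too low. Without these 2 sites, left out after the data were seen, the log2 change of Jak3 was 0.17. edgeR's quasi-likelihood test called 0 of 251 mRNA sites (0%) and 0 of 192 small RNA sites (0%) for coverage, with 5 and 13 at an unadjusted p under 0.05. With the replicate number as a block edgeR called 6 small RNA sites, and without WT replicate 3 it called 2, Jak3 not among them. DESeq2 called 0 in both, with 0 and 6 at an unadjusted p under 0.05.

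**Figure D4:**
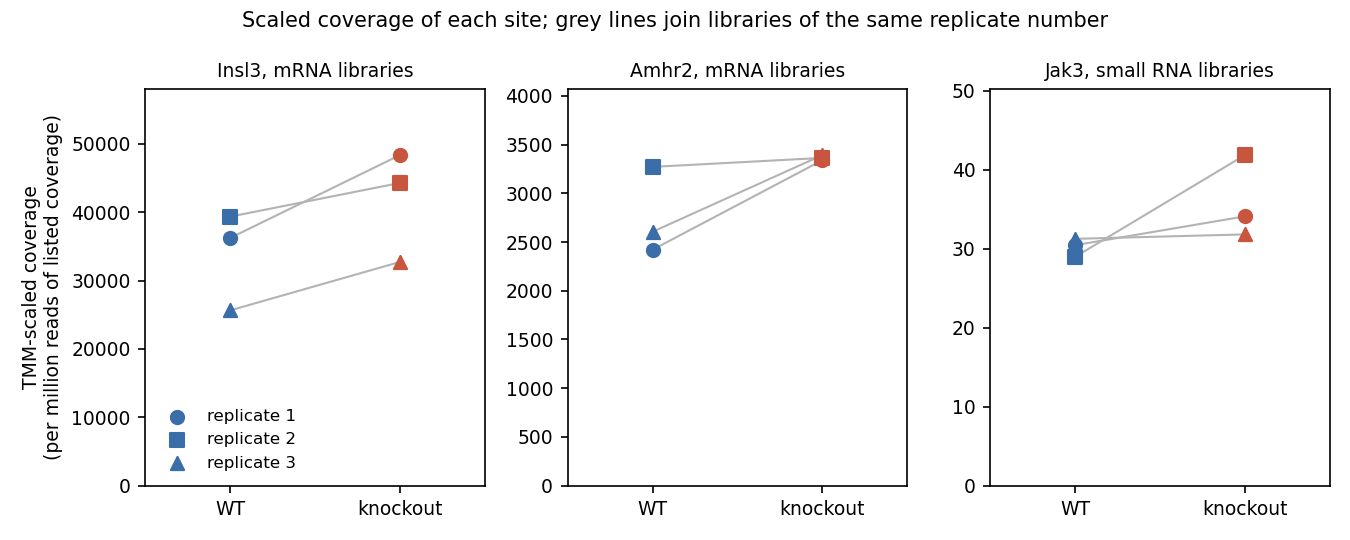
TMM-scaled coverage (per 1000000 reads of listed coverage) at Insl3 and Amhr2 in mRNA and at Jak3 in small RNA, one point per library and one marker per replicate number, with grey lines joining libraries of the same number. All 9 lines rise from WT to knockout with TMM, while without it the Jak3 values of replicates 1 (34.9 and 34.3) and 3 (29.95 and 28.1) fall, and the axes, which start at 0, differ in scale between panels.

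Few other genes of the lists drawn up for these cells and pathways had a site. Genes outside those lists were not searched for cell type. Of 24 genes on the Leydig and Sertoli marker lists, 2 had an mRNA site, Insl3 and Amhr2, so the steroid synthesis enzymes and the Sertoli transcription factors on the lists gave no value. Of 9 genes of the INSL3 and relaxin family, 1 was listed (Insl3), with no site in its receptor gene Rxfp2. Of 12 genes of AMH and BMP signalling, 1 was listed (Amhr2), with no site in Amh or the SMAD genes. Of 18 JAK-STAT genes, Jak3 was the 1 with a small RNA site, and 0 had an mRNA site. Of 11 steroid synthesis genes and 11 markers of peritubular myoid cells, macrophages and endothelium, 0 were listed in mRNA. Of 10 germ cell markers, 2 were listed in mRNA. Piwil1, which encodes a piRNA-binding protein of spermatocytes and spermatids, had a log2 coverage change of -0.35 and Adam2, a sperm surface protein gene, of 0.24, both with an adjusted p of 0.988 in edgeR's quasi-likelihood test. The tables list sites and not expression, so whether the share of Leydig or Sertoli cells differed between genotypes was not tested.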

How the data were processed

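m5C was measured by ultrafast bisulfite sequencing in testis RNA, and 12 libraries were used here (6 mRNA, 6 small RNA, 3 per genotype and kind). Coverage summed over listed sites was 42086 to 55140 reads in mRNA libraries and 4674265 to 5096438 in those of small RNA. Per the file headers, the deposited tables give for each library the coverage, the C count and the m5C level. Coverage and C count were taken here as counts of reads without normalization. The deposited m5C level was taken as C count over coverage, a fraction rounded to 2 decimals. Levels were recomputed here as percentages, since rounding moves a level by up to 0.005 as a fraction. The submitters' processing notes name cutadapt, Trimmomatic, HISAT2, Bowtie2, SAMtools and GRCm39. Their roles and versions, and how sites were chosen, are not given in the sources used here. No label states that replicates are separate animals, and p-values then reflect the spread between libraries alone, which may be technical.

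Members, lists and tests were chosen with earlier results of these data known. Levels of all mRNA sites were tested with a two-sided quasi-binomial logistic model of the C counts with each site's own dispersion (coverage of at least 10, at least 2 libraries per genotype, adjusted p under 0.05). Coverage was tested with edgeR 4.0.16 (quasi-likelihood, TMM) over each table, and limma 3.58.1 and DESeq2 1.42.0 served as alternatives, in R 4.3.3. The SEs given with edgeR's log2 changes were worked back from the change and the F statistic of its test. Sites named beside the members are mainly the 3 closest by level or coverage profile, the deepest sites, and listed genes of the lists. Ubb-ps, Tcp10c, Pabpc1, Git1 and Ldhal6b were named after their values were seen. So were tRNA-Gly-GCC-4-1, tRNA-Ile-AAT-1-1 and tRNA-Pro-TGG-1-1, which were picked for the size of their genotype difference. Same-numbered libraries were checked for pairing. The coverage deviations of the 3 pairs correlated at 0.513, 0.694 and 0.808 in mRNA and 0.423, 0.253 and 0.141 in small RNA. Each meets the limit of 0.1 for pairing, but some differently numbered pairs met it as well. WT replicate 1 with knockout replicate 2 gave 0.483 in mRNA, and WT replicate 2 with knockout replicate 1 gave 0.506. In small RNA, WT replicate 3 with knockout replicate 2 gave 0.240. The remaining differently numbered pairs were negative. These correlations therefore do not show that equal numbers mark true pairs. The coverage values given are from the fit without a block, with the paired fit as an alternative. The m5C residuals correlated at 0.0904, -0.0132 and 0.0798 in mRNA, below that limit, and at 0.309, 0.607 and 0.494 in small RNA. There WT replicate 1 with knockout replicate 3 gave 0.180, and WT replicate 3 with knockout replicate 1 gave 0.322.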

Additional observations from a re-analysis of the deposited data

How the results depend on the processing

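Neither Insl3 nor Amhr2 passed the threshold for m5C under any alternative run, with adjusted p of 0.849 to 1 at Insl3 and 0.875 to 0.995 at Amhr2 over the quasi-binomial model's settings, limma and Fisher's test. The sign at Insl3 changed with reads pooled by genotype, as in Fisher's exact test (0.0554 points), the deposited rounded levels gave 0, and leaving out 1 library gave -0.385 to 0.230. At Amhr2 leaving out 1 library gave -0.0441 to 2.18 points. The Jak3 difference stayed between -5.88 and -3.25 points and the difference between kinds of library between 6.54 and 8.13 over the alternatives run. The count of mRNA sites called for m5C was 0 to 1 with 1 library left out, the 1 without knockout replicate 3. With the replicate number as a block, the m5C differences at Insl3 and Amhr2 are unchanged by construction (adjusted p 0.985 and 0.875). In the paired fit of coverage the log2 changes were 0.31 (Insl3) and 0.29 (Amhr2). There edgeR gave unadjusted p of 0.0274 and 0.0309 and an adjusted p of 0.342 for both. In that fit 28 of 251 mRNA sites had an unadjusted p under 0.05 in edgeR, against 5 without the block, and 0 were called. The replicate block called 6 small RNA sites for coverage, and leaving out 1 library 0 to 2 (2 without WT replicate 3), in edgeR. Leaving out the 2 deepest small RNA sites, an alternative chosen after seeing the data, called 0. Jak3 was not among those called, with an adjusted p of at least 0.531 in every alternative. At their lower depth, single-library intervals were 5.80 to 12.5 points wide at Amhr2 and Jak3, against 1.76 to 2.86 at Insl3.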
